A study of Homo sapiens with 35 samples.

Results

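The sites described here are places in the genome where the NF-κB subunit p52 and the transcription factor ETS1 were both found by ChIP-seq in TWEAK-treated U-87 MG cells. Peaks of the 2 p52 libraries were merged where they overlapped, a peak in either library being enough, which gave 12172 p52 sites on chromosomes 1 to 22 and X. A p52 site was kept as shared where it overlapped, by at least 1 bp, an ETS1 site that had a peak in both ETS1 libraries, of which there were 1875. This left 399 shared sites, 11773 p52 sites without ETS1 and 1452 ETS1 sites without p52. The sites were thus chosen by the p52 and ETS1 peaks listed after TWEAK, whose strength is given as a description. RNA Pol II peaks and RNA were not used in the choice.

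U-87 MG is a glioblastoma cell line of human origin. CRISPR control cells were left untreated (UT) or treated with TWEAK at 10 ng/ml, for which the labels give 48 h. *ETS1* KD and *NFKB2* KD cells were all treated with TWEAK, so that no untreated KD cells were compared. The KDs were made with lentiCRISPRv2, a lentiviral vector carrying Cas9 and a guide RNA, and the methods name no single clones. The 20 ChIP-seq libraries, 2 per group, covered p52 (untreated control, TWEAK-treated control, and *ETS1* KD made with guide 1 or with guide 2), ETS1 (untreated and TWEAK-treated control) and RNA Pol II (untreated control, TWEAK-treated control, *ETS1* KD and *NFKB2* KD). The 12 RNA-seq libraries, 3 per group, covered the same 4 groups as RNA Pol II.

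TWEAK, a TNF-family cytokine, signals through non-canonical NF-κB: the *NFKB2* product p100 is cut to p52, which enters the nucleus. p52 has no transactivation domain of its own and commonly acts as a dimer with RelB, and NF-κB dimers read the κB site, a short element with G at one end and C at the other. ETS1 is the founding member of the ETS family, whose DNA-binding domain reads a GGAA core, and which is found mainly at promoters.

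Windows under the p52 summits of 6 shared sites are printed here because they show the elements that the counts further on refer to. They are given on the plus strand of hg38. Capitals mark matches on either strand to the κB consensus, to the ETS core AGGAAG and the extended ETS element CCGGAAG, to the AP-1 element TGANTCA and to a 10-base palindrome with CGCG at its centre, and distances are counted from the summit to the leftmost base of a match. The first 3 are at genes whose RNA changed with TWEAK, and the other 3 are among the strongest shared sites.
*TFPI2* promoter, chr7:93890793-93890942: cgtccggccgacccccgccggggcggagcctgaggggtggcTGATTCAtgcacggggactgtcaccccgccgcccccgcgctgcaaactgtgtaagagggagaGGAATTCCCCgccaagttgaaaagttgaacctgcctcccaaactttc
*SH3BP5* promoter, chr3:15331923-15332082: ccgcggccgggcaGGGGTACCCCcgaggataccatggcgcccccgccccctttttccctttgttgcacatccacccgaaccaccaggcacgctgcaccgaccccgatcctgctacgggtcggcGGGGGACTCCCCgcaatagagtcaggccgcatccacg
upstream of *JUNB*, chr19:12790306-12790405: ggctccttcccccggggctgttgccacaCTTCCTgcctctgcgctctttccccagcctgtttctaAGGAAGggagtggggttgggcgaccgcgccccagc
*WDR73* promoter, chr15:84654285-84654504: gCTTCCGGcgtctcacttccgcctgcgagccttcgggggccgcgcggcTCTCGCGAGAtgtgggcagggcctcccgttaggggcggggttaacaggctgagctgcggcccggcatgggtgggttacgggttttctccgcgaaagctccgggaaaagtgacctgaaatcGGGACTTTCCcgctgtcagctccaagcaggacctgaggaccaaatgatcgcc
promoter 15756 bp from the *WNT10A* start, chr2:218908946-218909145: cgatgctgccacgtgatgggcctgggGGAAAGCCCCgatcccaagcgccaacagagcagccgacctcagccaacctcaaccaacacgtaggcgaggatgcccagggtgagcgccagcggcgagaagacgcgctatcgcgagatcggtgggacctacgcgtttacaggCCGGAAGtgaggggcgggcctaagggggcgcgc
intron upstream of the *SALL1* start, chr16:51155967-51156106: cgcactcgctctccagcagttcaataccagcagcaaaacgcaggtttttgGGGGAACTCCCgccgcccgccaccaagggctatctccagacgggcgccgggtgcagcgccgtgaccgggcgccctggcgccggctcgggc
At *TFPI2* the κB match began 13 bp from the p52 summit and an AP-1 match 49 bp from it on the other side. *SH3BP5* had κB matches at 3 to 5 bp and at 107 bp but no ETS letters, whereas *JUNB* had AGGAAG at 5 bp and 32 bp but no κB match. *WDR73* held a κB match at 27 bp, the palindrome at 147 bp and the element CCGGAAG at 194 bp. *WNT10A* had a κB match at 6 bp and CCGGAAG at 147 bp, and *SALL1* overlapping κB matches at 19 and 20 bp. The next window, from the largest cluster of shared sites in repeated sequence, is printed for contrast and held none of these letters.
chromosome 1 cluster, chr1:122581399-122581518: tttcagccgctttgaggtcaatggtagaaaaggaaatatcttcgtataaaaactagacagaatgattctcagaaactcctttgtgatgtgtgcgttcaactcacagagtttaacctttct

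The shared sites were of 2 kinds by sequence. The 31-base words in the 200 bp around each summit were counted over the whole of hg38, and a site was called repeated where the median word had 2 or more copies and single-copy otherwise. By this measure 180 of 399 shared sites were single-copy (45.1%, exact 95% confidence interval 40.2 to 50.1) and 219 were repeated (54.9%, 49.9 to 59.8). Repeated sequence held 15.7% of p52 sites without ETS1 (15.1 to 16.4) and 12.5% of ETS1 sites without p52 (10.8 to 14.3). Sites are not replicates and share their libraries, so these shares are given without a test, and the intervals cover counting error only. The text below treats the 2 kinds apart.

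Among the 219 repeated sites, 123 lay in 8 clusters of at least 5 sites. The largest cluster was chr1:121750224-125182721, with 33 sites, a median of 3543.5 copies per word and no annotated protein-coding gene. The second, chr21:8204003-8988733, held 24 sites and 4 annotated rRNA genes or pseudogenes. Of the repeated sites 140 (63.9%) were over 100000 bp from the nearest protein-coding start. Their peaks were low, with a median fold enrichment over background of 3.17 and 3.13 for p52 and 3.23 and 3.30 for ETS1 in the libraries of replicate 1 and 2. Their summits lay close together, with a median of 12 bp between the nearest p52 and ETS1 summits.

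The repeated sites were mostly present before TWEAK. A p52 peak was found at 162 (74.0%) and 139 (63.5%) of them in the untreated libraries, and an ETS1 peak at 204 (93.2%) and 177 (80.8%). The chromosome 1 cluster had untreated p52 peaks at 29 and 26 of its 33 sites, with median folds of 2.26 in each library, against 2.48 and 1.90 after TWEAK. The chromosome 21 cluster had the highest p52 folds of the repeated group, up to 55.6 and 20.6 after TWEAK against 3.83 and 4.56 untreated. The median word of such sites has 2 or more copies, so some reads there may not be assignable to a single copy. Whether whole reads could be assigned was not measured, and the part of this in their peaks was not tested.

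The single-copy sites were mostly at promoters. A promoter was defined as 1000 bp upstream to 100 bp downstream of an annotated start, and 119 of 180 sites were centred in one (66.1%, 58.7 to 73.0). The other single-copy sites comprised 31 in introns, 23 between genes and 7 in exons. The promoter share was 20.2% (19.4 to 21.0) at single-copy p52 sites without ETS1 and 65.2% (62.5 to 67.8) at single-copy ETS1 sites without p52, so that in location the shared sites resembled ETS1 sites more than p52 sites. The median distance from a single-copy shared site to the nearest protein-coding start was 285.5 bp, and 128 of 180 were within 1000 bp.

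p52 peaks at the single-copy sites came mainly from the second library. A p52 peak was found in both TWEAK libraries at 40 sites (22.2%), only in replicate 2 at 133 and only in replicate 1 at 7. The list of replicate 2 held 11761 peaks and that of replicate 1 held 3579. Median folds were 6.67 and 5.94 for p52 and 5.71 and 5.70 for ETS1, in replicate 1 and 2. In untreated cells only 14 of 180 sites had a p52 peak in replicate 1 (7.78%) and 13 in replicate 2 (7.22%), and 9 of the 14 were over 50000 bp from a protein-coding start. ETS1 peaks in untreated cells were present at 135 (75%) and 81 (45.0%) of the single-copy sites, and at 76 (42.2%) in both libraries. At most single-copy sites an ETS1 peak was thus listed before TWEAK in at least one library, and a p52 peak only after it. The untreated p52 lists were short, with 714 and 452 peaks, and the read depth is unknown.

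The nearest p52 and ETS1 summits of single-copy sites were a median of 141 bp apart, and 97 of 180 (53.9%) were within 150 bp. At the limits of the rule, 302 further p52 sites overlapped an ETS1 site with a peak in only 1 replicate, and their median highest ETS1 fold was 4.14 against 5.10 at the shared sites. The smallest overlap among the members was 1 bp, with 11 under 50 bp and a median of 324 bp. Because the ETS1 site and not each ETS1 peak had to overlap, a peak of ETS1 replicate 1 overlapped 388 and a peak of replicate 2 overlapped 380 of the 399 sites.

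**Figure D1:**
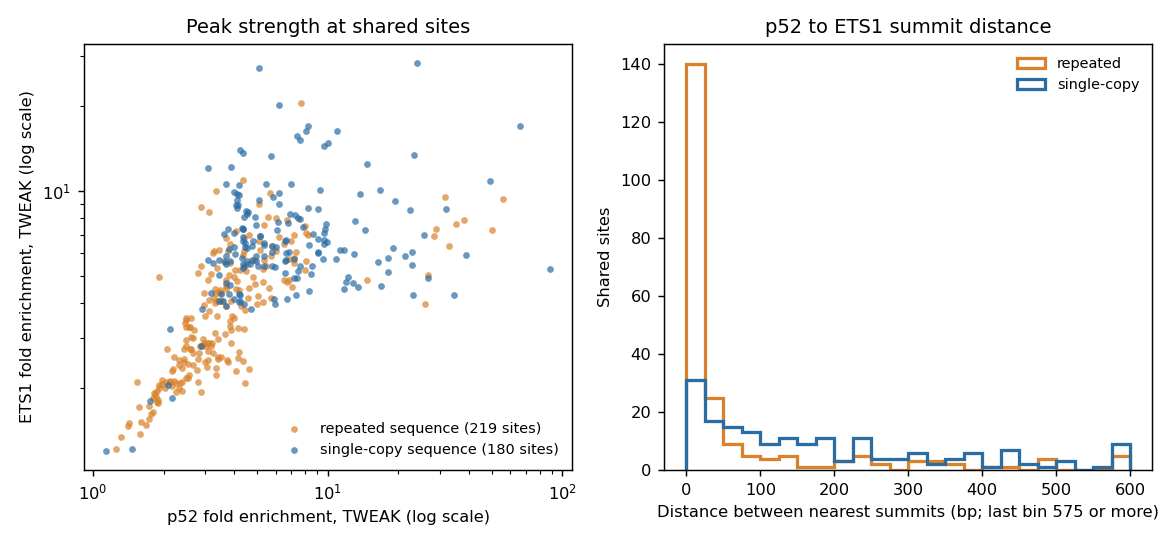
The left panel plots the highest fold enrichment of p52 (x, log scale) against that of ETS1 (y, log scale) over the TWEAK libraries for each of the 399 shared sites, with 180 single-copy sites in blue and 219 repeated sites in orange. The right panel counts sites by the distance in bp between the nearest p52 and ETS1 summits, with a median of 141 bp at single-copy and 12 bp at repeated sites.

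The shared sites with the best mean rank over the 4 TWEAK libraries were taken from the 140 with a peak in all 4. Of these 10 sites, 7 were at promoters, including those of *PGK1* (phosphoglycerate kinase), *EEF1A1* (translation elongation factor), *WDR73* (a WD-repeat protein), *PHF5A* (a component of the SF3b splicing complex) and *FGF12* (an intracellular FGF homologue). The *WDR73* site, chr15:84654291-84654712, had p52 folds of 10.6 and 16.8 and ETS1 folds of 6.95 and 10.1. At *PHF5A*, chr22:41468512-41468897, p52 folds were 8.71 and 14.7 and ETS1 folds 12.4 and 9.27. At *FGF12*, chr3:192409153-192410053, they were 9.31 and 19.3 for p52 and 9.22 and 6.86 for ETS1. None of these 3 promoters had a p52 peak in an untreated library.

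The intronic site at −3737 bp from the start of *SALL1*, which encodes a zinc finger transcription factor, had p52 folds of 12.3 and 23.3, ETS1 folds of 13.4 and 10.1 with TWEAK and ETS1 folds of 14.4 and 10.6 untreated. Its p52 and ETS1 summits were 19 bp apart. A second shared site lay at the *SALL1* promoter. The promoter site near *WNT10A* lay at an annotated start of another gene, 15756 bp from the nearest *WNT10A* start. It had p52 folds of 10.6 and 25.8 and an ETS1 peak in 1 untreated library. *WNT10A*, a secreted WNT ligand, had 0 to 3 counts per RNA library and was not tested. The other 2 sites not at promoters lay in the chromosome 21 cluster, in repeated sequence, with p52 folds of 55.6 and 16.5 at the first and 50.3 and 17.3 at the second.

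Both chromosome 21 sites had untreated p52 peaks, with folds of 3.83 and 3.60 at the first. The other sites among the 10 with a p52 peak in untreated cells were the promoters of *PGK1*, *EEF1A1* and the U6 snRNA gene *RNU6-1*. At *PGK1* the p52 fold was 24.0 and 8.37 untreated, 31.3 and 65.8 with TWEAK, 20.2 and 89.1 in *ETS1* KD with guide 1 and 158 and 508 with guide 2. At *RNU6-1* it was 3.83 and 5.93 untreated, 26.0 and 49.4 with TWEAK, 18.7 and 122 with guide 1 and 129 and 324 with guide 2. At *EEF1A1* it was 6.82 and 15 untreated, 17.1 and 24.1 with TWEAK, 14.5 in a single guide 1 library and 9.10 and 17.7 with guide 2. Copies of the human U6 and *EEF1A1* promoters are part of lentiCRISPRv2, and PGK promoters are common in lentiviral plasmids. Whether reads from a vector added to these 3 peaks was not tested. In the TWEAK-treated control libraries, the highest p52 fold at any single-copy shared site, a value picked after it was seen, was 20571 bp from the start of *SERPINA2*, at chr14:94345475-94346779, with folds of 46.2 and 88.6 with TWEAK, 32.3 to 75.5 in *ETS1* KD and no untreated peak. Its ETS1 folds were 3.05 and 5.30.

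**Figure D2:**
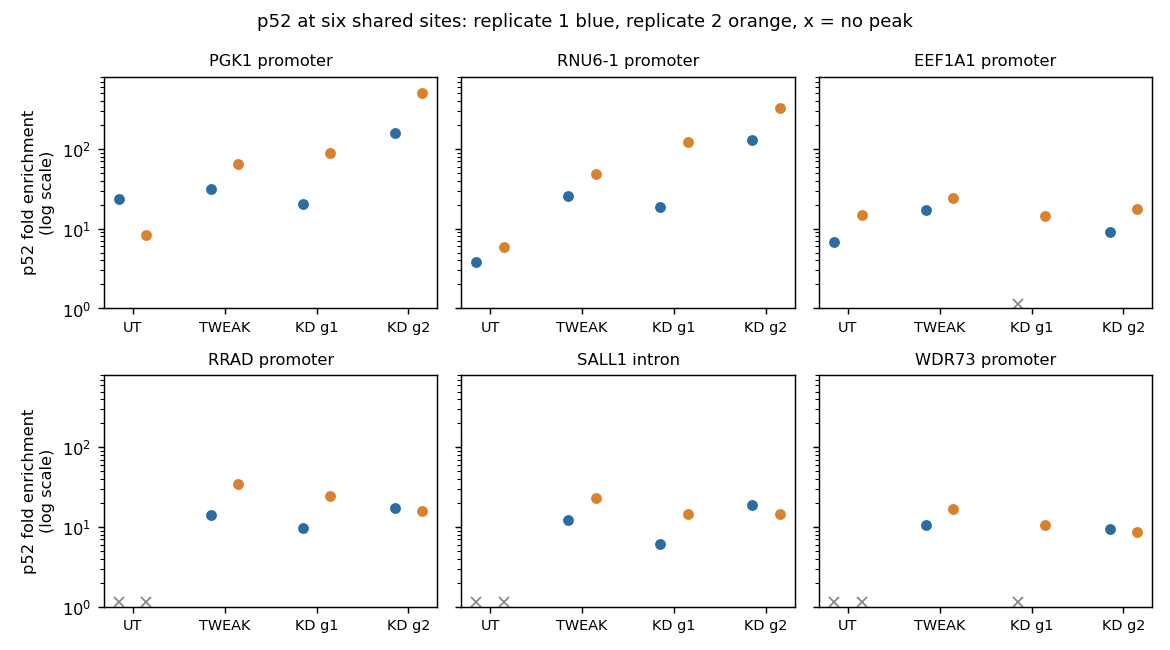
p52 fold enrichment (y, log scale) at 6 shared sites in the 8 p52 libraries: untreated control (UT), TWEAK-treated control, and TWEAK-treated *ETS1* KD with guide 1 (KD g1) or guide 2 (KD g2). Blue points are replicate 1, orange points replicate 2, and a grey cross marks a library without a peak. *PGK1*, *RNU6-1* and *EEF1A1* had peaks in both untreated libraries, and *RRAD*, *SALL1* and *WDR73* in neither.

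A group of shared sites lay at genes of small nuclear RNAs and of the U3 small nucleolar RNA, which are the RNA parts of the spliceosome and of the machinery that processes rRNA. This group was formed after the sites were seen, and no test was made on it. Of the 399 shared sites 23 were within 1000 bp of the start of such a gene (5.76%, 3.69 to 8.52), against 0.238% of p52 sites without ETS1 (28 sites) and 0.620% of ETS1 sites without p52 (9 sites). They comprised 9 sites in the U2 array, 5 at *SNORD3A*, *SNORD3B-2*, *SNORD3D* and a U3 gene, and single sites at *RNU1-1*, *RNU1-2*, *RNU1-4*, *RNVU1-22*, *RNU11*, *RNU2-2P*, *RNU4-2*, *RNU5B-1* and *RNU6-1*. Of the 23 sites 17 were in repeated and 6 in single-copy sequence. Apart from *RNU6-1*, centred at −122 bp, the sites were centred 54 to 851 bp downstream of the annotated start.

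The 9 sites of the U2 array, chr17:43239607-43300241, had no p52 peak in either untreated library. With TWEAK all 9 had a peak in p52 replicate 2 (median fold 6.86) and 4 in replicate 1 (median 4.24). In this respect they differed from the pericentromeric clusters, where untreated p52 peaks were found at most sites. The median ETS1 folds in the array were 4.75 and 4.64.

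RNA Pol II at the snRNA and U3 sites was very high. All of the 23 sites but *RNU6-1*, a gene known to be read by RNA polymerase III, had a Pol II peak in all 8 libraries. The median Pol II fold at these sites was 336 and 264 in untreated control, 557 and 255.5 in TWEAK-treated control, 307 and 308 in *ETS1* KD and 291 and 131 in *NFKB2* KD libraries. At the other single-copy shared sites with a Pol II peak the medians were between 6.75 and 10.3. At *RNU11*, a single-copy site of the minor spliceosome's U11 gene, the folds were 358 and 305 untreated and 603 and 264 with TWEAK. The untreated and TWEAK-treated values overlapped. The 2 sites at *SNORD3A* shared a single Pol II peak.

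Over all 180 single-copy sites Pol II peaks were frequent in every condition. A Pol II peak overlapped 82 and 127 sites in untreated control (45.6% and 70.6%), 120 and 111 in TWEAK-treated control (66.7% and 61.7%), 100 and 106 in *ETS1* KD (55.6% and 58.9%) and 116 and 85 in *NFKB2* KD (64.4% and 47.2%). With the lists as deposited, the shares of untreated and TWEAK-treated cells overlapped, as did those of TWEAK-treated control and *NFKB2* KD cells. Both *ETS1* KD libraries were below both TWEAK-treated control libraries, but 2 against 2 libraries cannot give an exact two-sided permutation p below 0.333, and the lists differed in length from 11175 to 44672 peaks. With each list cut to its strongest 11175 peaks, the shares were 38.3% and 57.2% in untreated control and 53.3% in each TWEAK-treated control library. They were 47.8% and 46.1% in *ETS1* KD and 45% and 47.2% in *NFKB2* KD. Both KDs were then below the TWEAK-treated control, but this order was not particular to the shared sites. At single-copy ETS1 sites without p52 the highest KD share was 33.1%, against 33.99% in the lower TWEAK-treated control library. At single-copy p52 sites without ETS1 these values were 13.8% and 14.2%. A Pol II peak was present in both TWEAK-treated control libraries at 104 sites (57.8%, 50.2 to 65.1), against 16.8% (16 to 17.5) of single-copy p52 sites without ETS1 and 38.4% (35.7 to 41.1) of single-copy ETS1 sites without p52. Pol II was found in all 8 libraries at 59 single-copy shared sites (32.8%), against 6.91% of p52 sites without ETS1 and 19.0% of ETS1 sites without p52.

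Few single-copy sites gained a Pol II peak. Only 2 had one in both TWEAK-treated and in neither untreated control library. The first was the promoter 15756 bp from the start of *WNT10A*, a start of another gene. Its folds were 8.16 and 4.10 with TWEAK, 4.91 and 4.87 in *ETS1* KD and 7.36 and 6.50 in *NFKB2* KD. The second was 519 bp from the start of *IL7*, which encodes a lymphoid growth factor, with folds of 11.0 and 5.70 with TWEAK and a peak in 1 library of each KD (4.89 in *ETS1* KD and 3.04 in *NFKB2* KD). A single site had a Pol II peak in both untreated and neither TWEAK-treated control library.

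Pol II values are those of the whole peak over a site, and the extent of a peak could differ between libraries. At *JUNB*, the shared site 1120 bp upstream lay within a single Pol II peak that also covered the gene in all 4 control libraries, with folds of 76.4 and 119 untreated and 227 and 109 with TWEAK. In the 4 KD libraries the gene had a peak of its own, with folds of 92.4 and 84.4 in *ETS1* KD and 93.9 and 43.1 in *NFKB2* KD. The site was then under a separate, narrower peak of 916 to 1526 bp with folds of 7.0, 7.74, 7.58 and 5.97. The fold at the site thus followed the division of the peak, and the gene peaks of all 4 KD libraries had lower folds than the peaks of both TWEAK-treated control libraries.

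**Figure D3:**
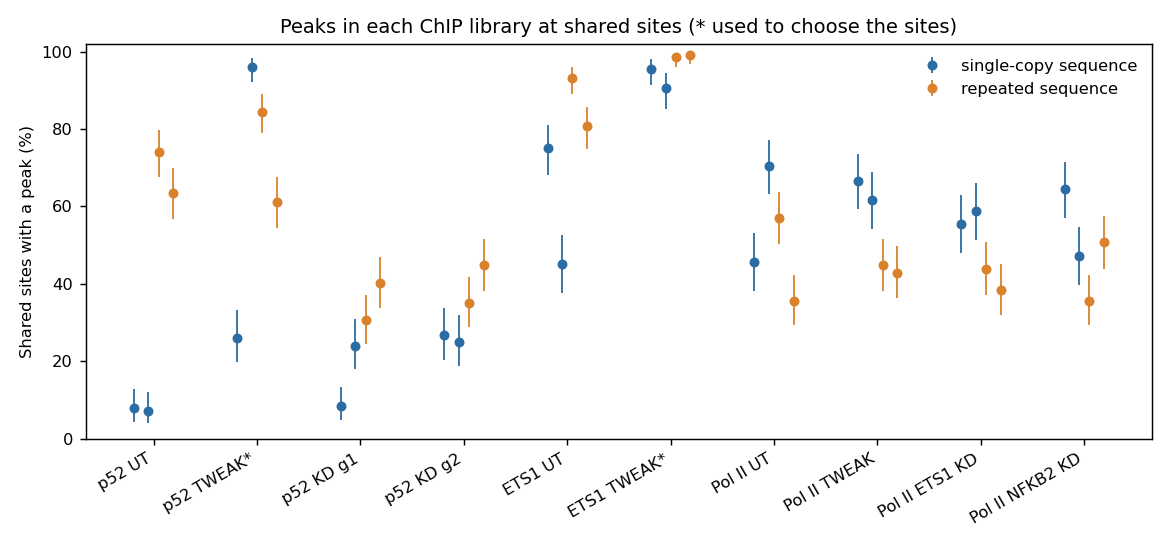
Percent of shared sites with a peak in each of the 20 ChIP libraries, for 180 single-copy (blue) and 219 repeated (orange) sites, with exact 95% confidence intervals and the 2 libraries of a group side by side. The TWEAK libraries of p52 and ETS1, marked with a star, chose the sites. p52 peaks in untreated cells (UT) were at 7.78% and 7.22% of single-copy sites and at 74.0% and 63.5% of repeated sites.

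The p52 libraries of TWEAK-treated *ETS1* KD cells show where p52 was listed when *ETS1* was reduced. Since the control p52 libraries chose the sites, a lower share in the KD is a description. At single-copy sites a p52 peak was found at 15 and 43 of 180 with guide 1 (8.33% and 23.9%) and at 48 and 45 with guide 2 (26.7% and 25%). No p52 peak was found in any of the 4 KD libraries at 119 sites (66.1%, 58.7 to 73.0), against 56.4% (55.4 to 57.4) of single-copy p52 sites without ETS1. The KD lists held 1387 to 4252 peaks, against 11761 for the TWEAK library that gave most of the sites. Each list was then cut to its strongest 1387 peaks, and sites were kept where a TWEAK-treated control list still had a peak. This kept 22 single-copy shared sites. Of these, 18.2% and 22.7% had no peak in the control libraries, 50% and 45.5% none with guide 1 and 40.9% and 36.4% none with guide 2. Over 1395 single-copy p52 sites without ETS1 the shares were 19.8% and 8.75% in control, 33.2% and 23.9% with guide 1 and 25.2% and 24.7% with guide 2. At equal lengths the share without a peak was higher in each KD library than in either control library, in both sets. Because a control peak was required, this order was favoured in advance and is only a description. The shared set was also small.

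Single-copy sites were divided by their p52 fold in the TWEAK-treated control, the measure that also chose them, and fewer peaks were missing in the KD in the highest bin than in the other bins. Of the 87 single-copy shared sites with a p52 fold below 5.54, the lowest of 3 bins, 92.0% to 97.7% had no peak in a KD library. In the middle bin of 45 sites 100% and 91.1% had no peak with guide 1 and 86.7% and 97.8% none with guide 2, close to the lowest bin. Of the 48 single-copy shared sites with a p52 fold above 9.06, the highest bin, 72.9% and 25% had no peak with guide 1 and 25% and 22.9% none with guide 2. At p52 sites without ETS1 in the same bin the shares were 70.4% and 29.6% with guide 1 and 28% and 28.9% with guide 2. In this highest bin the share of p52 sites without ETS1 lay inside the interval of the shared sites in each of the 4 libraries. In the middle bin it lay outside in the second guide 2 library, at 87% against 88.2 to 99.9. In the lowest bin it lay outside in the first guide 1 library, at 99.9% against 91.9 to 99.7, and in the second guide 2 library, at 97.5% against 84.1 to 96.7. The *RRAD* promoter, for example, had p52 folds of 14.4 and 34.4 with TWEAK and kept a peak in all 4 KD libraries, with 9.75 and 24.8 for guide 1 and 17.3 and 15.8 for guide 2. The *TFPI2* promoter had a fold of 8.26 in TWEAK replicate 2 alone and no peak in the KD.

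Elements under the summits were counted within 100 bp on either side and on both strands. The κB consensus was found under the p52 summit at 78 of 180 single-copy shared sites (43.3%, 36 to 50.9), against 68.3% (67.3 to 69.2) at single-copy p52 sites without ETS1 and 8.09% around all protein-coding starts. The AP-1 element TGANTCA was at 1.67% of them (0.345 to 4.79), against 23.5% (22.7 to 24.4) at p52 sites without ETS1 and 3.04% around all starts. Among promoter sites alone, κB was at 41.2% of shared and 59.8% of other p52 sites, and TGANTCA at 1.68% and 12.1%. The sets also differed in p52 strength. The lowest bin of p52 fold held 87 of 180 single-copy shared sites and 2786 of 9924 single-copy p52 sites without ETS1. Elements were not counted within bins, so the part of strength in these shares was not tested. In the 219 repeated sites the κB consensus was at 4.11%, fewer than around all starts.

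ETS letters were no more frequent under the ETS1 summits than at promoters in general. AGGAAG was within 100 bp of the ETS1 summit at 21.1% of single-copy shared sites (15.4 to 27.8), 16.8% of ETS1 sites without p52 and 23.2% of windows of the same length around all starts. CCGGAAG was at 8.33% (4.74 to 13.4), 10.1% and 11.3%. The CGCG palindrome, seen in capitals in the *WDR73* window, was at 7 of 119 promoter sites (5.88%, 2.40 to 11.7) and at 3.98% of promoter ETS1 sites without p52, against 0.485% around all starts. κB or AP-1 letters at the p52 summit and ETS letters at the ETS1 summit occurred together at 27 of 180 sites (15%), and 76 sites (42.2%) had none of them. Other elements searched were CAGGTG, found at 12.8% of p52 summits against 14.2% of starts, the cyclic AMP response element and the NRF1 palindrome, the last at 0 of 180 p52 summits (up to 2.03%) and 1.25% of starts. A match is only a run of letters, and a window without a match says nothing about whether the factor was there.

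**Figure D4:**
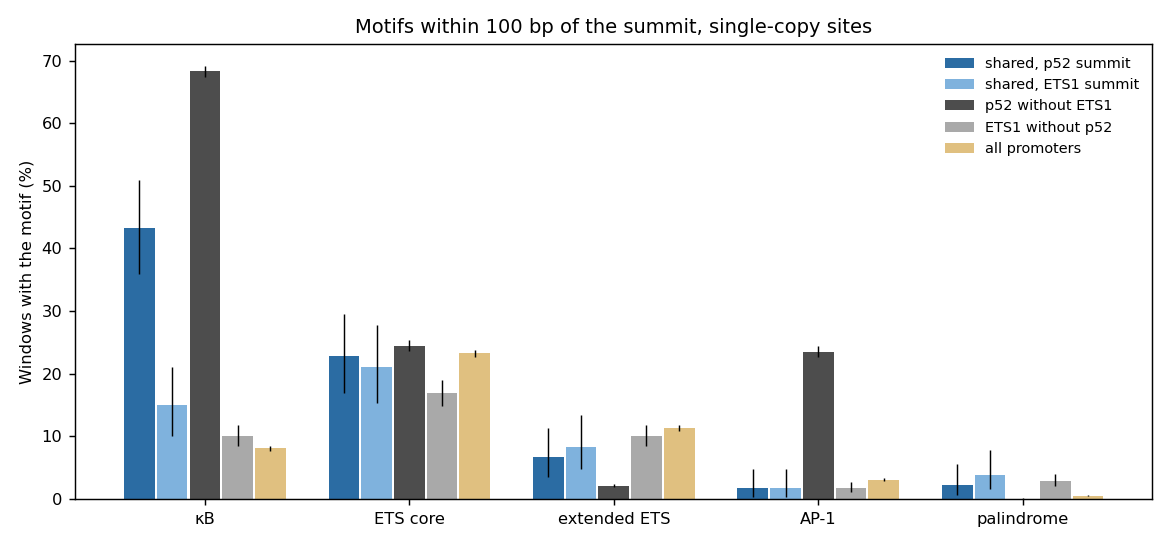
Percent of windows with each element within 100 bp of the summit, for single-copy sites, with exact 95% confidence intervals. Bars show shared sites around the p52 and the ETS1 summit, p52 sites without ETS1, ETS1 sites without p52 and all protein-coding starts. The elements are the κB consensus, AGGAAG (ETS core), CCGGAAG (extended ETS), TGANTCA (AP-1) and the CGCG palindrome. The κB bar is at 68.3% for p52 sites without ETS1 and at 43.3% for the p52 summits of shared sites, sets that also differ in p52 fold.

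The nearest protein-coding genes of the 399 sites numbered 240, of which 190 had enough counts to be tested. RNA-seq libraries held 28384201 to 40192606 counts, and values are given per library as CPM, counts scaled to the library total. *ETS1*, at 71.9, 73.1 and 87.6 CPM in TWEAK-treated control, was at 28.2, 33.0 and 37.8 in *ETS1* KD (log2 fold change −1.23 ± 0.15 SE, edgeR adjusted p = 0.00112). *NFKB2*, at 235, 289 and 346 CPM, was at 75.6, 92.6 and 105 in *NFKB2* KD (−1.67 ± 0.18, edgeR adjusted p = 0.00339). Among glioma markers *VIM*, *CD44* and *NES* were expressed in every library, whereas *GFAP*, *SOX2* and *S100B* did not pass the filter on low counts. *OLIG2* passed it at only 0.528 to 1.73 CPM. Markers of other cell types that passed lay between 0.0613 (*CD14*) and 3.04 CPM (*SYP*). In bulk RNA a change in the number of cells and in RNA per cell cannot be told apart.

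With TWEAK, 16 of the 190 tested genes changed at an edgeR adjusted p under 0.05, 5 higher and 11 lower (8.42%), against a background of 3.08% of all 16879 genes tested (1.55% higher and 1.53% lower). All 16 had a single-copy shared site. The median log2 fold change of the 190 genes was 0.05 and that of all genes 0.02. Among genes with a shared site at their promoter 10 of 99 changed (10.1%), against 6.06% of genes with a p52 site without ETS1 and 4.87% of genes with an ETS1 site without p52 at the promoter. The count depended on single libraries, as did the calls over all genes. It was 4 without TWEAK-treated replicate 2, 5 without replicate 3 and 10 without replicate 1, and 6 without untreated replicate 1 or 2. Over all genes tested the share called was then 1.23%, 0.99% and 2.14% without these TWEAK-treated libraries. It was 1.08% and 1.06% without untreated replicate 1 or 2. *RRAD*, *TFPI2*, *MAN1C1* and *CYP1B1* were called under all alternatives run.

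The genes that rose included *TFPI2*, a secreted inhibitor of plasmin and other serine proteases, and *RRAD*, a Ras-related GTPase. *TFPI2* was at 785, 708 and 766 CPM untreated and at 2443, 2344 and 2399 CPM with TWEAK. It rose by 1.67 ± 0.16 SE on the log2 scale (edgeR adjusted p = 0.000193), and the groups did not overlap. Of all genes tested 10.9% were higher with TWEAK without overlap and 11.5% lower. *RRAD* was at 92.3, 98.0 and 111 CPM untreated and at 239, 235 and 214 with TWEAK, a log2 fold change of 1.19 ± 0.12 (edgeR adjusted p = 0.000193). Pol II folds at the *RRAD* site were 35.3 and 36.8 untreated and 161 and 58.4 with TWEAK, and at the *TFPI2* site 22.8 and 41.3 untreated and 144 and 73.6 with TWEAK. In both cases the TWEAK libraries were above the untreated ones.

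*SLCO4A1*, an organic anion transporter, and the AP-1 subunit *JUNB* also rose. *SLCO4A1* went from 13.1, 16.6 and 20.8 to 30.2, 47.1 and 62.6 CPM (log2 fold change 1.47 ± 0.29, edgeR adjusted p = 0.0173). *JUNB* went from 45.8, 55.2 and 61.0 to 80.9, 82.7 and 93.0 CPM (0.66 ± 0.16, edgeR adjusted p = 0.0484). The libraries of the groups did not overlap for either gene, as for 10.9% of all genes tested. The call of *SLCO4A1* was lost when certain single libraries were left out, and that of *JUNB* when any was.

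The 11 genes that fell covered several functions. *MAN1C1*, a Golgi mannosidase of N-glycan trimming, was at 15.6, 18.8 and 20.2 CPM untreated and at 5.74, 7.34 and 6.38 with TWEAK (log2 fold change −1.49 ± 0.22, edgeR adjusted p = 0.00285). *CYP1B1*, a cytochrome P450 that oxidises oestrogens and aromatic hydrocarbons, went from 145, 151 and 139 to 65.6, 70.9 and 83.3 CPM (−0.98 ± 0.12, edgeR adjusted p = 0.000636). The *MAN1C1* site had no Pol II peak in any of the 8 libraries. Both genes had a p52 peak only in TWEAK replicate 2, with folds of 4.53 at *MAN1C1* and 7.38 at *CYP1B1*, and no p52 peak in the KD.

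Of the other genes that fell, *HHAT* (the acyltransferase of Hedgehog ligands), *INKA2* (an inhibitor of the kinase PAK4), *BMPER* (a secreted regulator of BMP signalling), *PHYH* (peroxisomal phytanic acid oxidation) and *SH3BP5* (a Rab11 exchange factor) had the site at their promoter. Their log2 fold changes were −0.92, −0.74, −0.73, −0.56 and −0.47. *SDC2* (a syndecan), *ADCY8* (an adenylate cyclase) and *PROS1* (the anticoagulant protein S) had a site elsewhere, with log2 fold changes of −0.77, −0.74 and −0.48. The remaining gene, *SLC16A6*, a monocarboxylate transporter family member, fell outside the naming rule and had a log2 fold change of −0.80. *PROS1* lay far from its sites: its single-copy site was 415829 bp away, with p52 folds of 1.48 and 1.23 after TWEAK and 1.25 and 1.34 untreated, and a repeated site was 172947 bp away. Among the genes of this paragraph other than *SLC16A6*, each call was lost when certain single libraries were left out.

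The sites at 3 of the promoters differed in p52 strength. *PHYH* had p52 folds of 5.63 and 19.0 with TWEAK and peaks in both guide 2 libraries (6.81 and 10.4). *INKA2* had a fold of 3.10 in TWEAK replicate 2 alone, and *SH3BP5* one of 7.88 with a peak of 7.31 in 1 guide 1 library. Pol II was present at *INKA2*, *BMPER* and *PHYH* in all 8 libraries. The strongest shared sites named above did not stand out in RNA: *PGK1*, *EEF1A1*, *WDR73*, *PHF5A*, *FGF12* and *SALL1* had log2 fold changes with TWEAK of −0.09 to 0.22 and edgeR adjusted p-values of 0.725 to 0.869.

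**Figure D5:**
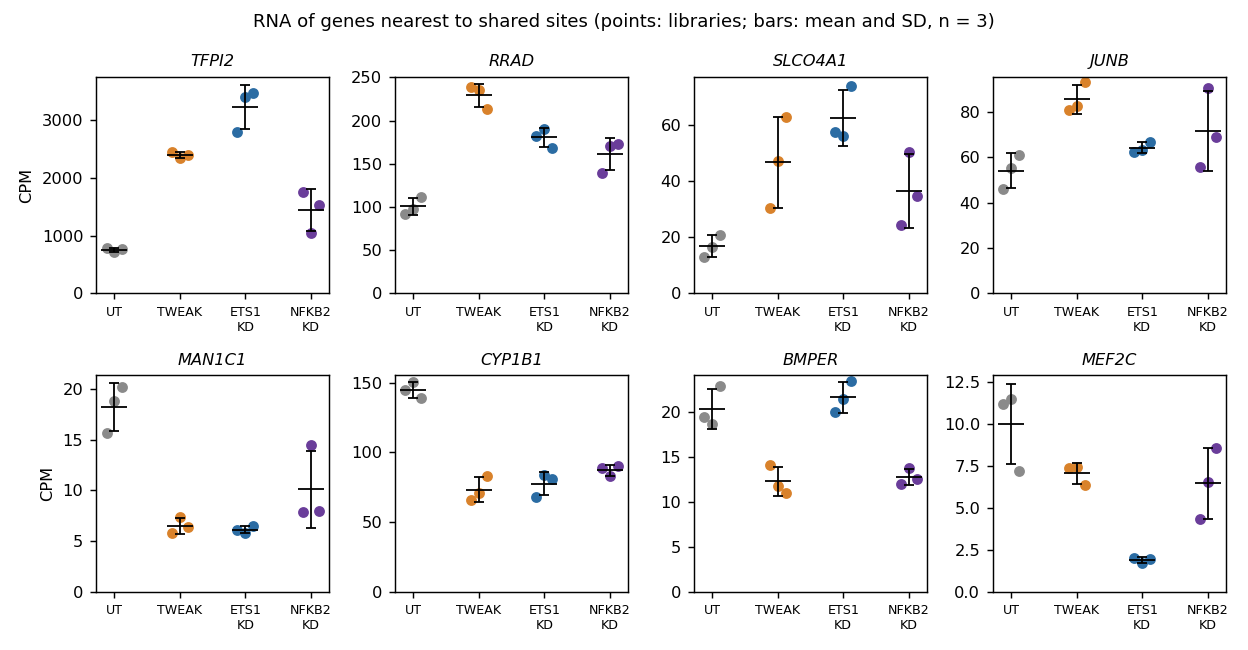
RNA in CPM (y, linear scale from 0) of 8 genes nearest to shared sites, in untreated control (UT) and in TWEAK-treated control, *ETS1* KD and *NFKB2* KD cells. Points are libraries, and bars give mean and SD (n = 3). *TFPI2*, *RRAD*, *SLCO4A1* and *JUNB* were higher and *MAN1C1*, *CYP1B1* and *BMPER* lower with TWEAK than untreated in every library, and *MEF2C* was lowest in *ETS1* KD.

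In *ETS1* KD against control cells, both TWEAK-treated, 3 of the 190 genes changed, 2 higher and 1 lower (1.58%), against 1.39% of all genes tested (0.255% higher and 1.13% lower). *MEF2C*, a MADS-box transcription factor, was at 7.35, 7.44 and 6.36 CPM in control and at 2.02, 1.69 and 1.97 in *ETS1* KD (log2 fold change −1.89 ± 0.25, edgeR adjusted p = 0.00227). Its shared site lay 54829 bp from the nearest annotated *MEF2C* start, at an annotated start of another gene. The site had a p52 fold of 4.69 in replicate 2 alone and ETS1 folds of 5.50 and 3.79. *BMPER* was at 14, 11.7 and 11.0 CPM in control and at 20, 21.4 and 23.4 in *ETS1* KD (0.82 ± 0.13, edgeR adjusted p = 0.00642). *COL4A2*, a chain of type IV collagen, rose from 5.31, 6.05 and 6.19 to 10.7, 12.1 and 11.1 CPM (0.95 ± 0.19, edgeR adjusted p = 0.0301), and its site was in repeated sequence. The KD and TWEAK comparisons share the TWEAK-treated control libraries. The call of *COL4A2* was lost when any single library was left out and with the replicate number as a block, and that of *BMPER* was lost without *ETS1* KD replicate 3 or TWEAK-treated control replicate 2.

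In *NFKB2* KD against control cells 0 of the 190 genes changed by edgeR at an adjusted p under 0.05, against 0.0296% of all genes tested (5 genes, 0.00592% higher and 0.0237% lower). At an unadjusted p under 0.05 the count was 9 of 190 (4.74%), against 3.91% of all genes. DESeq2 called 2 of the 190, *TFPI2* and *RRAD*, both lower, against 36 of all 16879 genes (0.213%). Without the filter on low counts edgeR called *TFPI2*, 1 of 224 nearest genes, against 87 of 35060 genes (0.248%). *TFPI2* was at 1752, 1046 and 1523 CPM in *NFKB2* KD (log2 fold change −0.73 ± 0.16, edgeR adjusted p = 0.319), below all 3 control libraries. *RRAD* was at 139, 171 and 173 CPM (−0.51 ± 0.12, edgeR adjusted p = 0.407), also below all 3. Of all genes tested 3.82% were lower in this way in every *NFKB2* KD library. In *ETS1* KD *TFPI2* was at 2785, 3400 and 3473 CPM and *RRAD* at 183, 190 and 168, with edgeR adjusted p-values of 0.276 and 0.211.

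Gene lists of the pathways involved had few members next to a shared site. Of all 16879 genes tested only 190 were nearest genes, so short lists would hold few or none, and counts of 0 say little. Of 22 NF-κB pathway genes 13 were higher with TWEAK, against 1.55% of all genes tested. Nearest genes of a shared site numbered 0 of these 22. The same count held for 19 ETS family genes, 12 unfolded protein response genes and 13 cytokines and chemokines. Of 11 AP-1 genes 2 were nearest genes, *JUNB* and *JUND*. *JUND* had a p52 fold of 12 in TWEAK replicate 2 and RNA of 98.0, 109 and 147 CPM untreated and 97.9, 121 and 111 with TWEAK (edgeR adjusted p = 0.881). Of 80 ribosomal protein genes 2 were, *RPL35* and *RPS28*, each with the site within 17 bp of the start. Their log2 fold changes with TWEAK were 0.08 and −0.03.

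*ERN1*, which encodes the stress sensor IRE1α, was not a shared site. The paper reports ETS1 at its promoter with and without p52 activation, and uses it as an example of p52 and ETS1 acting together. Its evidence was signal tracks of p52, ETS1, Pol II and RNA, and protein blots of IRE1α. In the peak lists, none of the 4 ETS1 libraries had a peak within 5000 bp of the gene, chr17:64039080-64130819, unlike the ETS1 binding reported. Signal tracks and protein were not examined here. p52 had a peak at the start only in TWEAK replicate 2, with a fold of 9.97. Pol II was at the start in all 8 libraries, with folds of 20.5 and 36.1 untreated, 85.8 and 53.1 with TWEAK, 40.1 and 37.9 in *ETS1* KD and 34.0 and 9.61 in *NFKB2* KD, so that both TWEAK-treated control libraries were above all others. *ERN1* RNA was at 9.76, 9.34 and 13.6 CPM untreated, 12.8, 17.0 and 25 with TWEAK, 13.5, 11.5 and 15.7 in *ETS1* KD and 11.4, 11.9 and 16 in *NFKB2* KD. The log2 fold changes were 0.74 ± 0.24 with TWEAK (edgeR adjusted p = 0.136) and −0.43 and −0.48 in the KDs, and the groups overlapped.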

How the data were processed

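ChIP-seq peaks and RNA-seq gene counts were analysed as deposited, on hg38. For ChIP-seq, the authors trimmed reads with Trimmomatic, aligned them with Bowtie2, called peaks per library with MACS2 over input and removed blacklisted regions. Each deposited peak gives a fold enrichment over background and −log10 p and q values. For RNA-seq, the authors aligned reads with STAR and deposited featureCounts counts per gene. Tool versions and the pairing of the 3 inputs, which have no values here, with libraries are not given in the sources used here, nor is the guide of the KD libraries of RNA-seq and Pol II. The peak lists give no read depth.

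Peaks were merged per factor. Promoters and nearest genes (the protein-coding gene with the closest start) came from GENCODE 44. Copies were counted with 31-base words over 200 bp at the summit. RNA was tested with edgeR 4.0.16 (quasi-likelihood, TMM, filterByExpr, 4 groups in 1 model, 16879 genes, Benjamini-Hochberg adjusted p under 0.05), with DESeq2 1.42.0 as an alternative. Shares have exact Clopper-Pearson 95% intervals. The scripts were tested on simulated data. The study's methods call the RNA-seq libraries biological replicates. For ChIP-seq the sources used here do not say how the 2 libraries of a group relate. Named genes were, per comparison, up to 8 higher and 8 lower called genes with a shared site at their promoter and up to 4 higher and 4 lower with one elsewhere (smallest adjusted p), the 10 sites with the best mean rank over the 4 TWEAK libraries, members of the gene lists near a site, and *ETS1*, *NFKB2* and *ERN1*. A called gene and a site sequence are not reported here. The members and lists were chosen with earlier results of these data known.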

Additional observations from a re-analysis of the deposited data

How the results depend on the processing

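Shares here are over all shared sites. The number of sites, 399, was 140 with p52 in both TWEAK replicates, 701 with ETS1 in either, 194 with −log10 q of at least 5 and 180 in single-copy sequence, a restriction chosen after seeing the data, and 228 to 551 without 1 library. The promoter share, 34.8%, was 26.4% with p52 in both replicates, 26.0% with summits within 150 bp, 27.8% with the q limit, 66.1% in single-copy sequence, 48.6% with a window of 2000 bp upstream to 500 bp downstream, 26.6% with protein-coding starts only, and 18.0% to 42.3% without 1 library. The share without an untreated p52 peak, 54.6%, was in the same order 37.1%, 44.9%, 39.2% and 92.2%, 65.9% with ETS1 in either replicate, and 25% to 65.9% without 1 library. ETS1 in both untreated libraries, 62.4%, was 77.9%, 68.1%, 79.4% and 42.2%, 43.4% with ETS1 in either, and 49.7% to 76.8% without 1 library. Sites without p52 in any KD library, 52.1%, were 27.9%, 46.0%, 32.0% and 66.1%, 20.5% with equal numbers of peaks, and 33.3% to 54.2% without 1 library. The 20.5% covers only the 83 sites that still had a peak in a TWEAK-treated control list. Pol II in both TWEAK libraries, 45.9%, was 52.1% with p52 in both, 57.8% in single-copy sequence, 30.6% with equal numbers of peaks, and 34.6% to 52% without 1 library. The κB share, 21.8%, was 28% with ETS1 in either, 14.7% with summits within 150 bp, 43.3% in single-copy sequence, and 11.4% to 29.0% without 1 library. ETS letters, 25.1%, were at 39.1% in windows of 200 bp each side. The lowest promoter, untreated, KD, Pol II and κB values without 1 library were those without p52 replicate 2, apart from ETS1 in both untreated libraries. The causes were not tested.

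The TWEAK count of 16 of 190 genes was 10 of 99 with promoter sites only (10.1%) and 3 of 55 with p52 in both replicates (5.45%). Without 1 library it was 4 to 11 of 190. The share called over all genes, 3.08%, was 0.99% to 2.34% under the same omissions. The *ETS1* KD count of 3 was 5 of 224 without the count filter, against 1.34% of all genes. It was 6 at an unadjusted p of at most 0.05 and fold of at least 1.5, for which no share over all genes was computed. With promoter sites only it was 1 of 99 (1.01%) and with p52 in both replicates 1 of 55 (1.82%). Without 1 library it was 1 to 2 of 190, against 0.590% to 0.855% of all genes. The *NFKB2* KD count of 0 was 2 with DESeq2, against 0.213% of all genes, and 1 without the count filter, against 0.248%. It was 2 at the unadjusted p and fold limits, again without a share over all genes, and 0 under each omission. Of 242 alternative fits of the 22 called gene comparisons 65 lost the call, 9 of the 22 kept it under all, and none changed direction.

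Same-numbered libraries share only a number. The correlations of their deviations ranged from −0.304 to 0.492 over the comparisons, so they were not treated as paired. With the replicate block the counts were 18 (TWEAK), 3 (*ETS1* KD, 1 higher and 2 lower, against 2 higher and 1 lower without it, *COL4A2* being lost) and 0 (*NFKB2* KD). The shares called over all genes were then 3.89%, 1.49% and 0.0237%. The length of each peak list, and not a known depth, limits how absent peaks can be read.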
